A study of Mus musculus with 27 samples.

Results

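Mouse splenic B cells cultured with lipopolysaccharide (LPS) for 3 h were compared with unstimulated B cells of the same culture experiment. The comparison took 8 of the 27 samples of the series, 4 with LPS and 4 unstimulated, chosen by their labels in the first of 2 experiments, and all genes of the count table were considered. B cells were isolated from spleens of WT C57BL6 mice by magnetic removal of other cells and were kept in 48-well plates, and both groups were vehicle groups (NS_DMSO and LPS_DMSO) that received no inhibitor. The other samples of the series received disulfiram, ibrutinib or IL-4 with anti-CD40 antibody and were not compared here, except that a second experiment with 1 unstimulated and 1 LPS sample was set beside the first. The replicates are described as biologically independent samples. The dose of LPS in the sequenced cultures, the age of the mice that gave the B cells and the number of mice behind the replicates were not given in the sources used here, and p-values measure the spread between these samples.

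LPS is a glycolipid of the Gram-negative outer membrane. It is carried by CD14 to the receptor pair TLR4 and MD-2 (encoded by Ly96), and the adaptor MyD88 then activates NF-κB and MAP kinases, while the adaptor TRIF activates IRF3 and with it interferon β, whose receptor drives the interferon-stimulated genes. B cells also carry RP105 (Cd180) with MD-1 (Ly86), a TLR4 relative. LPS is a T-cell-independent mitogen for B cells: resting cells leave quiescence, grow, and later divide and secrete antibody.

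Levels are given as CPM, counts per 1000000 counts of the library after scaling by edgeR's TMM factors, with the 4 values of a group always in the order of replicates 1 to 4. Log2 fold changes (LPS against unstimulated) and Benjamini-Hochberg adjusted p-values come from edgeR's quasi-likelihood test. That test gives no standard error (SE). Each SE is approximate and was derived as the absolute log2 fold change divided by the square root of the F statistic. The test covered the 14477 genes that passed edgeR's filter on low counts, and a gene was called at an adjusted p under 0.05. Of these genes 4283 (29.6%) were called higher and 4818 (33.3%) lower with LPS, and 1728 (11.9%) and 2214 (15.3%) of them by 2-fold or more. Scaling by total counts in place of TMM gave 2907 higher and 6383 lower, and moved the median log2 fold change of all genes from -0.05 to -0.27, so changes of the size of that shift depend on the scaling. Libraries held 18057386 to 23183245 counts, and the 4 LPS libraries were alike: in no pair of them did more than 0.501% of genes differ by 2-fold. A lack of overlap between the 2 groups was common. Every LPS sample lay above every unstimulated sample in 4289 of the 14477 genes tested and below in 4528. Counts of list members called, given below, are to be read beside the 29.6% of all genes called higher and 33.3% called lower.

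The unstimulated samples fell into 2 pairs. Replicates 1 and 2 differed by 2-fold in 39 genes (0.276%) and replicates 3 and 4 in 47 (0.340%), but 1893 of the genes tested (13.1%) were 2-fold or more apart between the mean levels of the 2 pairs (with 0.1 CPM added to each). In 1051 of these 1893 genes (55.5%) replicates 1 and 2 lay between replicates 3 and 4 and the LPS group. In 244 (12.9%) replicates 3 and 4 lay between, and in 598 (31.6%) the LPS group lay between the pairs. Each call was therefore repeated against each pair alone: 4107 genes (28.4%) were called higher and 4108 (28.4%) lower against both pairs. These fits hold only the small spread within a pair, and each called more genes than the fit with all 4. Replicates 1 and 2 alone gave 5005 higher and 5238 lower, and replicates 3 and 4 alone 5618 and 5902. A call against both pairs thus checks the direction and is not a stricter test. Of the calls made with all 4 unstimulated samples, 4017 of 4283 higher calls (93.8%) and 4096 of 4818 lower calls (85.0%) held against both. Opposite calls against the pairs were made for 492 genes, 1 of which, the complement receptor gene Cr2, was also called with all 4. The main fit took the 4 unstimulated samples as independent, though they fell into 2 pairs. SEs and adjusted p-values of genes with pairs far apart may therefore be too small. The labels give nothing that tells the pairs apart, and what separates them was not tested.

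**Figure D1:**
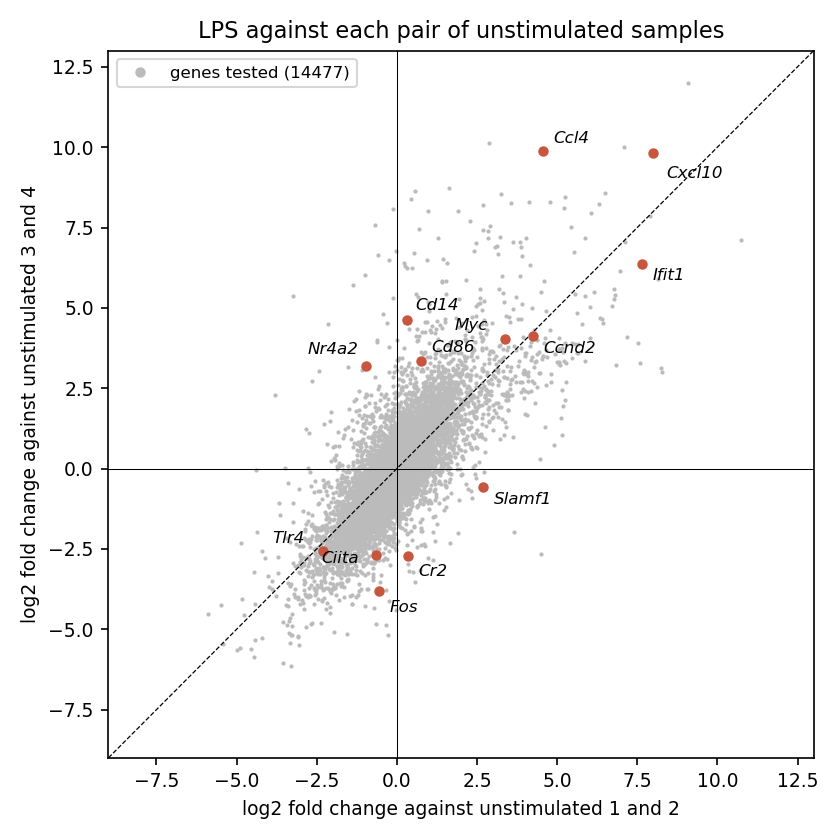
Each point is 1 of the 14477 genes tested, with its log2 fold change of the 4 LPS samples against unstimulated replicates 1 and 2 on the horizontal axis and against unstimulated replicates 3 and 4 on the vertical axis. The dashed line marks equal changes; Myc, Ccnd2 and Tlr4 lie near it, while Fos (-0.55 and -3.81) and Cr2 (0.35 and -2.70) lie far below it and Cd86 (0.76 and 3.36) above it.

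The promoters of the genes on which the results below turn were searched for the motifs of NF-κB and of the interferon pathway. They were RefSeq windows on GRCm38.p6 of 300 bases, from 250 before to 50 after the transcription start, searched on both strands. The interferon-stimulated response element (ISRE), searched as GAAANNGAAA, is bound by IRF and STAT complexes. It was present in 16 of 26 windows (61.5%) of the 23 interferon-stimulated genes on the list below that the RefSeq table holds, against 3.44% of all 32851 windows and 3.31% of the windows of genes tested. The sequences of 4 strongly raised genes are shown with ISRE matches in capitals, 5′ to 3′ on the strand of the gene (either strand of the element). 
Isg15, chr4:156200850-156200921, minus strand: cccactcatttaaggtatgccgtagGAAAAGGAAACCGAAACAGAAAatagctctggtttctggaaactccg
Ifit1, chr19:34640760-34640838, plus strand: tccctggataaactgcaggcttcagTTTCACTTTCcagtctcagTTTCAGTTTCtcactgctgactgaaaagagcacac
Rsad2, chr12:26456538-26456597, minus strand: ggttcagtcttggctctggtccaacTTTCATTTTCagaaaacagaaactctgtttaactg
Cxcl10, chr5:92349068-92349127, minus strand: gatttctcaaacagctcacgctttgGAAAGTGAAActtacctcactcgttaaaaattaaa
Isg15 held 3 overlapping matches, the nearest of them 66 bases before the start, and Ifit1 held 2, at 104 and 85 bases. A match says that the letters are present and is not evidence of binding in these cells.

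The NF-κB consensus was present in 12 of 25 windows (48%) of the NF-κB subunit and inhibitor genes, in 7 of 19 (36.8%) of cytokine genes and in 4 of 8 (50%) of chemokine genes, against 8.46% of all windows and 10.4% of the windows of genes tested. Shown are Nfkbia, the classical feedback inhibitor, and the part of the Cxcl10 promoter that lies downstream of the ISRE printed above, with matches to the NF-κB consensus in capitals. 
Nfkbia, chr12:55492648-55492701, minus strand: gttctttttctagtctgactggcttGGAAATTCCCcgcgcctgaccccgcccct
Cxcl10, chr5:92348958-92349073, minus strand: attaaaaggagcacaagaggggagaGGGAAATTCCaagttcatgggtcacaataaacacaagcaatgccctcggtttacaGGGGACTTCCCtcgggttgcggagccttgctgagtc
Cxcl10 thus carried both motifs, but the ISRE was present in only 1 of 8 windows (12.5%) of chemokine genes. The sterol regulatory element, searched as TCACNCCAC, was present in 1 of 18 windows (5.56%) of the cholesterol genes below, against 1.24% of all windows and 1.16% of those of genes tested. The E-box CACGTG, bound by Myc and Max and by other factors, was present in 7 of 44 windows (15.9%) of nucleolar genes, against 7.15% of all windows and 9.92% of those of genes tested.

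In the receptor complex the mRNA of the receptor itself fell. Tlr4 (chr4:66827584-66930284, mm10) read 20.9, 20.2, 25.8 and 24.8 CPM in the unstimulated samples and 3.33, 3.01, 6.11 and 4.32 CPM with LPS, a fall of 5.48-fold in mean CPM (log2 fold change -2.46, SE 0.22, adjusted p = 2.27e-05). Every LPS sample lay below every unstimulated sample. Ly96 was low and overlapped between groups (3.16, 4.27, 4.48 and 6.10 CPM unstimulated, 4.82, 4.23, 5.21 and 3.36 CPM with LPS; adjusted p = 0.922). Cd14 differed by unstimulated pair: it read 32.1, 33.3, 1.48 and 1.95 CPM without and 36.9, 39.98, 43.8 and 44.02 CPM with LPS, so that it rose against replicates 3 and 4 by 4.62 on the log2 scale and was not called with all 4 (adjusted p = 0.225). Cd180, the TLR4 relative, fell by 3.27-fold (log2 fold change -1.71, SE 0.43, adjusted p = 0.00739), and Ly86, which encodes the partner of RP105, rose by 1.65-fold (adjusted p = 0.0355). The call of Ly86 was lost with total counts and when an LPS library or unstimulated replicate 1 or 2 was left out (highest adjusted p = 0.0718).

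The adaptors moved in opposite directions. Myd88 read 39.7, 39.9, 41.2 and 39.9 CPM unstimulated and 121, 133, 127 and 125 CPM with LPS, a 3.14-fold rise that was called against both pairs (log2 fold change 1.65, SE 0.05, adjusted p = 1.05e-07). Ticam2, which encodes the TRAM adaptor of TLR4, rose by 1.97-fold, and Ticam1, which encodes TRIF, fell by 1.203-fold (adjusted p = 9.61e-05 and 0.00402). Among the other Toll-like receptors, Tlr7, a sensor of single-stranded RNA, had the largest rise, from 27.5, 32.5, 101 and 91.0 to 333, 344, 326 and 327 CPM (log2 fold change 2.40, SE 0.41, adjusted p = 0.000991), and Tlr9, a sensor of unmethylated CpG DNA, rose by 1.73-fold (adjusted p = 8.41e-05). Over the 24 genes of LPS reception and Toll-like receptor signalling, 7 were called higher and 9 lower, near the shares of all genes tested (29.6% and 33.3%). Their median log2 fold change of -0.15 also lay near that of all genes.

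NF-κB genes rose broadly. Of 21 subunits, inhibitors and regulators 18 were called higher, all 18 against both pairs, and 2 lower, with a median of 1.53. Nfkbia, which encodes IκBα, the inhibitor that NF-κB itself induces, read 195, 191, 216 and 210.4 CPM unstimulated and 813, 853, 847 and 858 CPM with LPS (log2 fold change 2.05, SE 0.07, adjusted p = 1.22e-07). Nfkbiz, an atypical nuclear IκB needed for a set of secondary NF-κB targets, rose from 65.7, 70.6, 41.2 and 40.4 to 999, 1026, 992 and 994 CPM (log2 fold change 4.20, SE 0.21, adjusted p = 1.05e-06). For both genes every LPS sample lay above every unstimulated sample. Tnfaip3, which encodes the ubiquitin-editing enzyme A20, rose by 8.96-fold (log2 fold change 3.16, SE 0.18, adjusted p = 2.34e-06). The subunit genes Rel, Nfkb1 and Nfkb2 rose by 3.18-, 3.61- and 2.36-fold. The 2 that fell were Cyld, a deubiquitinase that restrains the pathway (-0.50 on the log2 scale, adjusted p = 0.00112), and Ikbkg, the scaffold subunit of the IκB kinase (-0.33, adjusted p = 0.00234).

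Immediate-early factors did not move as a block. Of 20 AP-1, EGR and NR4A genes 10 were called higher and 3 lower. Jun rose from 38.3, 35.3, 94.8 and 95.1 to 396, 425, 407 and 392 CPM (log2 fold change 2.62, SE 0.34, adjusted p = 0.0002), and Batf, a partner of JUN proteins in lymphocytes, rose by 13.7-fold (log2 fold change 3.78, SE 0.17, adjusted p = 5.69e-07). Fos was lower: it read 21.6, 19.8, 206 and 200.01 CPM unstimulated and 10.7, 12.4, 17.2 and 16.9 CPM with LPS. The size of the difference rested on unstimulated replicates 3 and 4, since the log2 fold change was -0.55 against replicates 1 and 2 and -3.81 against replicates 3 and 4; both were called. Fosb fell against both pairs (-1.70 and -2.95), and Egr1 overlapped between groups, with 95.1, 95.4, 92.8 and 89.3 CPM unstimulated and 89.5, 88.9, 97.8 and 103 CPM with LPS (adjusted p = 0.744). Egr2 and Nr4a2 had opposite calls against the 2 pairs: Nr4a2 read 8.63, 9.95, 0.565 and 0.488 CPM without and 3.39, 5.17, 5.38 and 5.04 CPM with LPS, between the pairs.

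Genes of feedback on signalling and on mRNA were also split. Of 16 genes of MAP kinase feedback 7 were called higher and 5 lower, where 29.6% of all genes tested were called higher and 33.3% lower. Gadd45b, a stress-induced regulator of MAP kinases, rose by 11.2-fold (log2 fold change 3.48, SE 0.17, adjusted p = 9.22e-07), and Dusp6, a phosphatase of ERK kinases, had the largest fall of all genes with a mean FPKM of 10 or more unstimulated and no overlap between the groups, from 18.4, 22.3, 116 and 113 to 3.54, 3.10, 4.15 and 5.41 CPM (log2 fold change -4.07, SE 0.69, adjusted p = 0.000885). Of 12 RNA-decay regulators 8 were called higher and 2 lower. Zc3h12a, the endonuclease Regnase-1, rose from 64.995, 63.01, 62.7 and 61.7 to 263, 272, 256 and 278 CPM, and Zfp36l2, a protein that binds AU-rich elements, fell from 344, 355, 604 and 567 to 57.3, 54.7, 62.8 and 59.5 CPM. No library of one group overlapped the other for either gene.

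**Figure D2:**
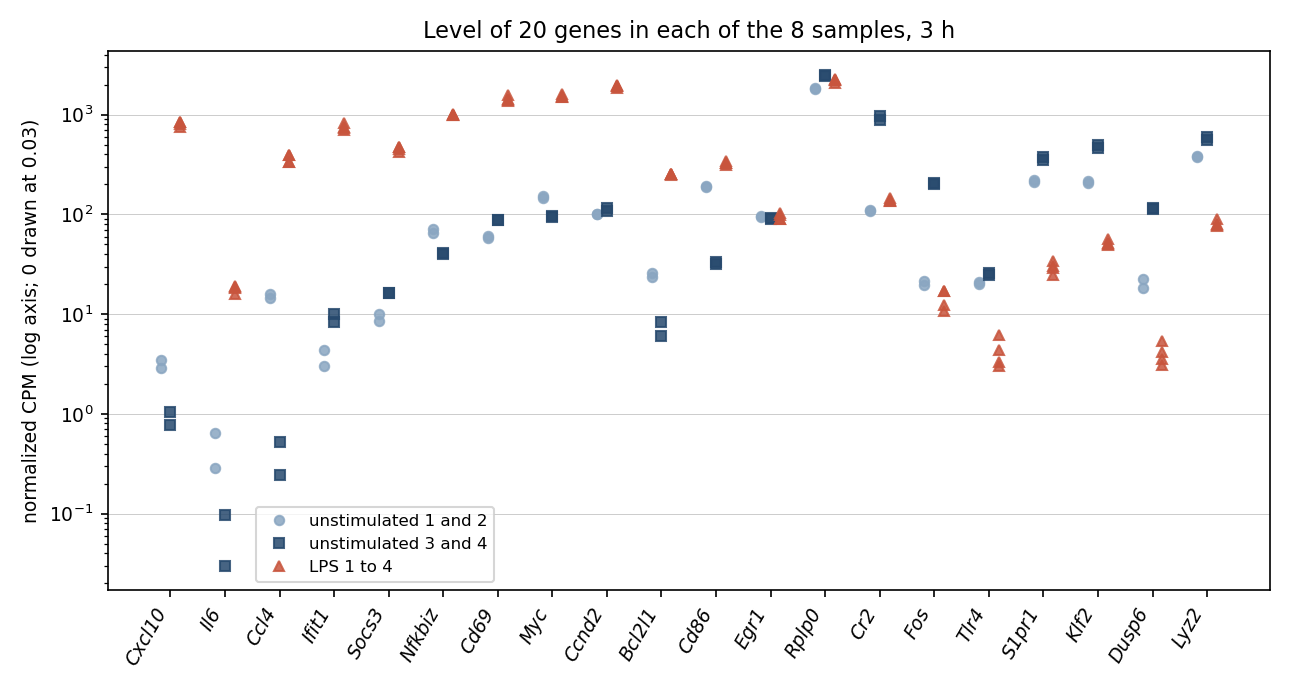
Normalized CPM on a log axis of 20 genes in each of the 8 samples, with 1 point per sample; a level of 0 is drawn at 0.03. The 4 LPS points of a gene lie close together, while the unstimulated points split into replicates 1 and 2 and replicates 3 and 4 for genes such as Ccl4, Cd86, Fos and Cr2.

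Of 21 cytokine genes, 18 were tested, 14 were called higher (all by 2-fold or more) and 1 lower, with a median log2 fold change of 3.24. Il6 read 0.640, 0.288, 0 and 0.0976 CPM unstimulated and 19.2, 18.4, 18.7 and 15.9 CPM with LPS, a rise from a level near 0 (log2 fold change 6.05, SE 0.53, adjusted p = 2e-05). Without unstimulated replicate 1 the log2 fold change of Il6 was 7.05, so its size is uncertain. Il10, an anti-inflammatory cytokine that regulatory B cells make, rose from 3.00, 3.66, 0.478 and 0.341 to 47.9, 48.7, 52.1 and 45.2 CPM, and Tnf from 17.4, 18.7, 7.26 and 7.51 to 217, 229, 234 and 213 CPM. All 3 genes were called against both pairs, and all 3 were lower in unstimulated replicates 3 and 4 than in 1 and 2. Per length of transcript the LPS levels were 125 ± 5.63 FPKM for Tnf, 33.9 ± 2.12 FPKM for Il10 and 6.81 ± 0.570 FPKM for Il6 (mean ± SD, n = 4), differences many times the SDs.

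Il27, which encodes the p28 subunit of IL-27, rose from 0.0799, 0.247, 0.652 and 0.390 to 16.3, 18.9, 17.4 and 17.4 CPM, and Ebi3, which encodes its partner subunit, rose by 4.91-fold. Ifnb1, the interferon β gene, had 0 counts in all 4 unstimulated libraries and 0.923, 0.752, 0.784 and 0.841 CPM with LPS, a rise of at least 6.35-fold when a floor of 3 counts per unstimulated library is used (adjusted p = 0.000119). Its level was thus detectable but low. The exception was Ltb, which encodes lymphotoxin β and is expressed by resting B cells: it fell from 308, 273, 594 and 611 to 221, 221, 226 and 233 CPM (log2 fold change -0.99, SE 0.26, adjusted p = 0.00908).

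Of 14 chemokine genes 12 were tested, 11 were called higher and none lower, with a median of 4.33. In the lists given here with 0 calls in a direction, DESeq2 called none either and no member had an unadjusted p under 0.05 in that direction, except for 1 lower gene of RNA polymerase I at an unadjusted p and the mitochondrial genome below. Cxcl10, a ligand of CXCR3 that both interferon and NF-κB induce, read 2.88, 3.45, 1.04 and 0.781 CPM unstimulated and 803, 845, 852 and 759.5 CPM with LPS, a 392-fold rise (log2 fold change 8.62, SE 0.45, adjusted p = 1.44e-06). Ccl4, an inflammatory CC chemokine, rose from 15.99, 14.6, 0.522 and 0.244 to 332, 394, 391 and 336 CPM (log2 fold change 5.52, SE 1.02, adjusted p = 0.00146), and its neighbour on chromosome 11, Ccl3, rose by 32.7-fold. For Ccl4 the size of the rise rests on which unstimulated samples are taken: the log2 fold change was 4.56 against replicates 1 and 2 and 9.87 against replicates 3 and 4. It was 6.13 without unstimulated replicate 1, and that of Ccl3 was 5.64 without unstimulated replicate 2, against 5.03 with all. Cxcl16 was the 1 tested chemokine that was not called (adjusted p = 0.362).

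All 29 interferon-stimulated genes were called higher by 2-fold or more, and all 29 against both pairs, with a median log2 fold change of 4.07 (quartiles 3.35 and 4.98). Ifit1, whose protein binds viral RNA that lacks cap methylation, read 3.00, 4.40, 9.998 and 8.39 CPM unstimulated and 729, 824, 749 and 703 CPM with LPS (log2 fold change 6.87, SE 0.39, adjusted p = 2.12e-06). Isg15, a ubiquitin-like modifier, rose from 3.52, 3.82, 9.91 and 11.7 to 407, 366, 448 and 407 CPM, and Rsad2, the antiviral enzyme viperin, from 4.40, 6.37, 12.5 and 12.6 to 583, 588, 604 and 568 CPM. Unlike Ccl3 and Ccl4, these 3 genes were higher in unstimulated replicates 3 and 4 than in 1 and 2. Ifit3 rose by 60.8-fold and Ifit3b by 89.9-fold; they are close paralogs on chromosome 19 between which reads may be split, so their separate values are uncertain. The smallest rise on the list was that of Gbp3, a guanylate-binding protein (1.54, SE 0.08).

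The summed level of the 29 genes was 621 to 651 CPM in unstimulated replicates 1 and 2, 1216 to 1225 CPM in replicates 3 and 4, and 13482 to 15028 CPM with LPS. Of 20 genes of the IRF, JAK-STAT and SOCS families 12 were called higher and 4 lower. Socs3, a feedback inhibitor of cytokine receptors, rose from 10.1, 8.47, 16.2 and 16.1 to 419.7, 473, 469.8 and 454 CPM (log2 fold change 5.16, SE 0.23, adjusted p = 6.31e-07). Irf1 rose by 3.12-fold, and Irf7, the amplifier of interferon induction, by 16.7-fold. Ifnar1, a chain of the type I interferon receptor, fell by 1.62-fold (adjusted p = 0.00326).

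Among the other inducible effectors 17 of 18 were tested, 14 were called higher and 1 lower, with a median of 2.80. Edn1, which encodes the vasoconstrictor endothelin-1, went from 0.0400, 0.0411, 0 and 0 to 24.9, 24.8, 28.2 and 24.3 CPM. With the floor of 3 counts in each unstimulated library this was a rise of at least 197-fold. Ptgs2, the inducible cyclooxygenase, rose from 2.32, 1.52, 0.0869 and 0.0488 to 19.95, 23.8, 27.4 and 19.5 CPM (log2 fold change 4.46, and 5.30 without unstimulated replicate 1). Marcksl1, a regulator of actin, rose by 9.05-fold. Cd38, an ectoenzyme of NAD metabolism on the B cell surface, was the 1 that fell (log2 fold change -1.52, SE 0.44, adjusted p = 0.0144).

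Most surface molecules of activation and costimulation rose: 13 of 20 were called higher, all 13 by 2-fold or more and against both pairs, and 1 was called lower, with a median of 1.48. Against unstimulated replicates 1 and 2 alone 18 were called higher and 2 lower. Replicates 3 and 4 alone gave 14 higher and 5 lower, and 5 of the 20 had opposite calls. Cd69, the early activation antigen that holds lymphocytes in tissue, read 58.4, 60.2, 87.6 and 88.6 CPM unstimulated and 1445, 1565, 1413 and 1381 CPM with LPS (log2 fold change 4.30, SE 0.17, adjusted p = 3.44e-07). Cd83 rose by 7.44-fold and reached 892 ± 41.03 FPKM, from 122 ± 60.1 FPKM (mean ± SD, n = 4). Cd86, the costimulatory ligand of CD28, read 194, 189.5, 31.6 and 33.4 CPM without and 326, 341, 326 and 311 CPM with LPS. Its groups did not overlap, but unstimulated replicates 1 and 2 stood close to the LPS level, and the log2 fold change was 0.76 against them and 3.36 against replicates 3 and 4 (1.54 with all 4, adjusted p = 0.0465). The call of Cd86 with all 4 was lost with total counts and without any 1 LPS library or unstimulated replicate 3 or 4 (highest adjusted p = 0.0857). Plaur, the urokinase receptor, was the 1 that fell, by 3.25-fold. Slamf1 read 3.76, 4.52, 41.2 and 42.003 CPM unstimulated and 27.3, 26.7, 26.4 and 27.6 CPM with LPS, between the pairs, and was called in opposite directions against them.

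Genes of the B cell receptor were mostly lower. Of 25 genes of the receptor and its proximal signalling 15 were called lower and 6 higher, with a median of -0.80. Against unstimulated replicates 1 and 2 alone 15 were called lower and 10 higher (median -0.28). Replicates 3 and 4 alone gave 18 lower and 6 higher (median -0.86), and 4 genes had opposite calls. In the second experiment 18 of the 25 were lower and 7 higher, with a median log2 ratio of -0.21. Cd79b, which encodes Igβ, read 1345, 1338, 1516 and 1541 CPM unstimulated and 444, 448, 457 and 481 CPM with LPS (log2 fold change -1.65, SE 0.08, adjusted p = 6.99e-07). Its partner Cd79a fell less, by 1.81-fold, and Btk, a kinase downstream of both, by 2.35-fold. Cd22, an inhibitory lectin of the receptor, fell from 327, 335, 1207 and 1141 to 171, 167, 156 and 160.2 CPM (log2 fold change -2.20, SE 0.45, adjusted p = 0.00243). Among the higher genes Pik3ap1, the BCAP adaptor that links Toll-like receptors to PI3 kinase, rose by 2.92-fold.

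The direction of Cr2, which encodes the complement receptor CD21, turned with the pair. The gene (chr1:195136811-195176716, mm10) read 108, 111, 975 and 888 CPM unstimulated and 137, 139, 136 and 147 CPM with LPS, so the LPS samples lay above replicates 1 and 2 and far below replicates 3 and 4. The call with all 4 (log2 fold change -1.90, SE 0.71, adjusted p = 0.0422) turned to a rise of 0.35 against replicates 1 and 2 and a change of -2.70 against replicates 3 and 4. The call was also lost without unstimulated replicate 3 or 4 and without each LPS library (highest adjusted p = 0.114). Pax5 and Ms4a1, B cell identity genes, and H2-Aa, an MHC class II chain, also had opposite calls against the pairs and were not called with all 4.

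Immunoglobulin constant region genes fell. Of 13 such genes, with the J chain, 12 were tested and 11 were called lower, all against both pairs, with a median of -0.87. Ighm went from 5689.9, 5903, 7442 and 6963 to 3672, 4076, 3727 and 3894 CPM (log2 fold change -0.76, SE 0.10, adjusted p = 0.000273), Ighd fell by 1.42-fold and Igha by 2.61-fold. Igkc, the 1 tested gene that was not called, overlapped between the groups (adjusted p = 0.0824). Iglc2 fell by 2.31-fold, though reads of the lambda constant genes may be split between near-identical copies.

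Of 19 transcription factors of the B cell and plasma cell programmes 4 were called higher and 11 lower. Irf4, which is required for plasma cell differentiation, rose from 407, 416, 218 and 207 to 1719, 1702, 1688 and 1714 CPM (log2 fold change 2.45, SE 0.25, adjusted p = 4.25e-05), and Id2 and Pou2f2 rose by 2.72- and 2.07-fold. Prdm1, which encodes the plasma cell regulator Blimp-1, was not called (23.9, 28.4, 6.69 and 7.12 CPM unstimulated, 24.2, 22.2, 27.5 and 26.004 CPM with LPS, adjusted p = 0.278). Id3, an inhibitor of E proteins, fell by 5.14-fold, and Hhex, a homeobox factor of lymphoid cells, from 73.3, 74.3, 147 and 138 to 7.44, 8.32, 10.6 and 8.83 CPM.

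Of 13 genes of MHC class I presentation 9 were called higher and none lower (median 0.67), and of 11 of class II none higher and 6 lower (median -0.53). The class II counts depended on the unstimulated pair, with 4 higher and 6 lower against replicates 1 and 2 alone, none higher and 10 lower against replicates 3 and 4 alone, and opposite calls for 3 genes. Nlrc5, the transactivator of class I genes, rose from 64.4, 67.8, 143 and 137 to 611, 605, 509 and 514 CPM (log2 fold change 2.44, SE 0.28, adjusted p = 9.68e-05). Ciita, the transactivator of class II genes, fell from 143, 149, 632 and 584 to 95.7, 87.9, 92.1 and 96.1 CPM (log2 fold change -2.02, SE 0.50, adjusted p = 0.00662). B2m rose by 1.64-fold, H2-K1 by 1.55-fold and Tap1, a peptide transporter, by 2.63-fold. Cd74, the invariant chain of class II, overlapped between the groups (adjusted p = 0.243).

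Most quiescence genes fell. Of 16 quiescence genes 13 were called lower, 11 of them by 2-fold or more, and 1 higher, with a median of -1.39. Klf2, which keeps lymphocytes resting, read 205, 218, 496 and 461 CPM unstimulated and 49.8, 50.6, 51.99 and 56.1 CPM with LPS (log2 fold change -2.73, SE 0.30, adjusted p = 8.05e-05). Its target S1pr1, the receptor for egress, fell from 211, 222, 377 and 352 to 24.7, 28.7, 34.1 and 30.2 CPM (log2 fold change -3.30, SE 0.22, adjusted p = 5.05e-06). The groups did not overlap for either gene, and both fell further against replicates 3 and 4. Foxo1 fell by 2.31-fold, and Tsc22d3, which encodes GILZ, by 7.64-fold. The 1 that rose was Slfn2 (3.01-fold), which is also known as an interferon-induced gene.

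Trafficking receptors were mixed, with 4 of 17 called higher and 10 lower. Cxcr5, the follicle-homing receptor, rose from 302, 304, 431 and 396 to 1064, 1151, 1090.3 and 1092 CPM, and Gpr183, the oxysterol receptor EBI2, by 2.23-fold. Ccr7, the receptor for T cell zone chemokines, rose from 684, 702, 174 and 176 to 967, 1001, 1022 and 1043 CPM, with log2 fold changes of 0.53 and 2.56 against the pairs and 1.22 with all 4 (adjusted p = 0.047). That call of Ccr7 was lost with total counts and when an LPS library or unstimulated replicate 3 or 4 was left out (highest adjusted p = 0.0867).

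Myc and cyclin D2 rose strongly, while the lists of cell cycle genes were mixed. Myc (chr15:61985391-61990374, mm10) read 146, 151, 96.1 and 94.5 CPM unstimulated and 1500.2, 1613, 1493 and 1529 CPM with LPS (log2 fold change 3.65, SE 0.18, adjusted p = 1.07e-06). Its partner Max rose by 1.82-fold, and Mxd4, a competitor for Max, fell by 8.10-fold. Ccnd2, the D cyclin of mature B cells, rose from 101, 102, 117 and 109 to 1976, 1850.0, 1917 and 1917 CPM (log2 fold change 4.16, SE 0.08, adjusted p = 1.6e-08). Of 15 G1 cyclins, kinases and inhibitors 4 were called higher and 8 lower: Cdk6 and Cdk4 rose by 2.46- and 1.58-fold, Ccnd3 fell by 1.46-fold, and the inhibitor gene Cdkn1b, which encodes p27, fell from 205, 201, 185 and 188 to 48.9, 50.7, 54.8 and 55.3 CPM. Cdkn1a, which encodes p21, rose from 38.1, 33.7, 2.48 and 2.44 to 94.0, 101, 115 and 109 CPM (adjusted p = 0.0257, and at most 0.0545 without 1 library, with the call lost without LPS replicate 3 or 4). Of 20 DNA replication genes 5 were called higher and 5 lower, with a median of -0.08 (8 higher and 4 lower against unstimulated replicates 1 and 2 alone, 6 higher and 10 lower against replicates 3 and 4 alone), and Mcm2 overlapped between the groups (adjusted p = 0.213).

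In the BCL2 family 15 of 16 genes were tested, 8 were called higher and 3 lower. Bcl2l1, which encodes the survival protein BCL-xL, read 23.5, 25.7, 6.04 and 8.39 CPM unstimulated and 247, 252, 256 and 256 CPM with LPS (log2 fold change 3.98, SE 0.45, adjusted p = 8.92e-05). Bmf and Bad, which encode death-promoting BH3-only proteins, fell by 3.32- and 2.66-fold. Bcl2l11, which encodes BIM, was higher against both pairs (0.32 and 2.92) but missed the threshold with all 4 (adjusted p = 0.132).

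Genes that build ribosomes rose, and few genes of the ribosome itself were called. Of 46 nucleolar factors of rRNA processing 45 were called higher, 43 of them by 2-fold or more, all 45 against both pairs, with a median of 1.48. Ncl, which encodes nucleolin, rose from 1349, 1336, 859.9 and 859.9 to 3438, 3420.4, 3506 and 3357 CPM (log2 fold change 1.64, SE 0.17, adjusted p = 4.96e-05), and Nop56, of the box C/D snoRNP, from 246, 246, 162 and 159 to 673, 663, 618 and 602 CPM. The largest rise was that of Rrp1b, by 5.05-fold, and the 1 gene not called was Imp3 (adjusted p = 0.146), which was called higher without unstimulated replicate 4. Of 12 genes of RNA polymerase I 11 were called higher and none lower. Of 80 cytosolic ribosomal protein genes 5 were called higher and 1 lower, with a median of -0.04, near that of all genes (8 higher without unstimulated replicate 4).

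For these 80 genes the direction followed the unstimulated pair. Against replicates 1 and 2 alone 60 were called higher and 1 lower, and against replicates 3 and 4 alone 6 higher and 48 lower, with medians of 0.17 and -0.17; 33 of the 80 had opposite calls. Rplp0, a stalk protein, read 1863, 1810.2, 2484 and 2426 CPM unstimulated and 2070.2, 2304, 2223 and 2249 CPM with LPS, between the pairs. Rps10 had 1 of the 5 higher calls (2.38-fold), but at 8.47, 8.30, 9.69 and 10.1 CPM unstimulated it was counted far below its neighbours in the ribosome, and its reads may be shared with pseudogenes.

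Most translation initiation factor and aminoacyl-tRNA synthetase genes were higher. Of 35 translation initiation factors 27 were called higher and 2 lower (median 0.82): Eif4a1, the helicase of the cap complex, rose by 2.76-fold and Eif4e, the cap-binding protein, by 2.52-fold, while Eif4ebp2, an inhibitor of EIF4E, fell by 1.76-fold. Of 20 cytosolic aminoacyl-tRNA synthetases 17 were called higher and 1 lower (median 1.04). Slc7a5, which encodes the leucine transporter LAT1, rose from 168, 172, 37.6 and 39.2 to 532, 528, 529 and 546 CPM (log2 fold change 2.36, SE 0.52, adjusted p = 0.00366), in a list of 12 amino acid transporters of which 7 were called higher and 3 lower. Slc43a2, another transporter of large neutral amino acids, fell from 95.5, 99.3, 95.8 and 87.9 to 11.3, 11.4, 12.8 and 12.6 CPM (log2 fold change -2.98, SE 0.07, adjusted p = 3.82e-08).

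Of 12 genes of de novo purine synthesis 11 were called higher and 1 lower (median 0.95), and Ppat, the first committed step, rose from 56.7, 54.7, 40.6 and 40.4 to 142, 144, 150.3 and 145 CPM. Of 12 pyrimidine genes 7 were called higher and 4 lower (median 0.52), with Umps, which makes UMP, up by 2.62-fold. Of 12 genes of serine, glycine and folate one-carbon metabolism 8 were called higher and 2 lower, and the mitochondrial enzyme genes Shmt2 and Mthfd2 rose by 2.74- and 3.27-fold. Of 10 polyamine genes 6 were called higher and 3 lower. Odc1, the first enzyme of polyamine synthesis, rose by 3.31-fold and Srm, spermidine synthase, by 4.39-fold, while Paox, an oxidase that takes polyamines apart, fell by 2.49-fold.

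Sterol genes rose: of 22 genes of cholesterol synthesis and uptake 17 were called higher, all 17 against both pairs, and 2 lower (median 1.29). Hmgcs1 read 139, 141, 47.6 and 48.3 CPM unstimulated and 323, 343, 339 and 333 CPM with LPS (log2 fold change 1.83, SE 0.37, adjusted p = 0.00251). Dhcr7, the last enzyme on the way to cholesterol, fell by 1.74-fold. Glycolysis was mixed, with 5 of 19 genes called higher and 8 lower (5 and 12 against unstimulated replicates 1 and 2 alone, 10 and 8 against replicates 3 and 4 alone): Hk2, a hexokinase, rose from 29.2, 30.3, 18.7 and 18.1 to 170.1, 156, 157 and 156 CPM (log2 fold change 2.73, SE 0.18, adjusted p = 4.7e-06), Ldha rose by 1.80-fold and the glucose transporter gene Slc2a1 fell by 1.29-fold. Of 22 genes of pyruvate dehydrogenase and the TCA cycle 8 were called higher and 7 lower, near the shares of all genes tested (29.6% and 33.3%). None of the 13 genes of the mitochondrial genome was called in either direction by edgeR with all 4 unstimulated samples, and none had an unadjusted p under 0.05, while DESeq2 called 2 higher and 0 lower. Against replicates 1 and 2 alone edgeR called 2 higher and 2 lower, and against replicates 3 and 4 alone 7 higher and 1 lower, with 2 higher against both pairs.

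Of 11 iron genes 2 were called higher and 6 lower with all 4 unstimulated samples, 2 higher and 9 lower against replicates 1 and 2 alone, and 5 higher and 5 lower against replicates 3 and 4 alone, with opposite calls for 3. Tfrc, the transferrin receptor, rose from 177, 173, 78.4 and 91.1 to 406, 381, 404 and 384 CPM (log2 fold change 1.60, SE 0.26, adjusted p = 0.000705). Hmox1, which encodes the haem-degrading enzyme, read 67.3, 70.9, 5.09 and 6.20 CPM unstimulated and 13.5, 13.7, 15.9 and 14.4 CPM with LPS, between the pairs. It was not called with all 4 (adjusted p = 0.158) and was called lower without unstimulated replicate 3. Of 14 heat shock chaperones 8 were called higher and 2 lower. Hspa5, the chaperone BiP of the endoplasmic reticulum, rose by 3.11-fold and the co-chaperone gene Dnajb1 fell by 1.21-fold.

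Outside these lists, several of the largest changes among well-expressed genes were falls. AI467606 read 55.5, 58.4, 134 and 132 CPM unstimulated and 6.10, 7.33, 5.66 and 9.31 CPM with LPS. Ceacam1, an inhibitory adhesion molecule, fell from 54.2, 56.2, 106 and 94.6 to 4.92, 6.81, 4.99 and 7.81 CPM, and Rgs14, a regulator of G protein signalling, from 41.97, 40.03, 108 and 94.8 to 5.59, 6.11, 7.12 and 6.61 CPM. Narf and Xkrx fell by 11.3- and 12.2-fold, and the small nuclear RNA gene Gm22107 by 11.4-fold from a low level (1.12, 0.945, 4.00 and 4.54 CPM). The rule that named these 6 genes required every LPS sample to lie below every unstimulated sample and a fall against both pairs, so neither is added support.

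Per length of transcript, the mRNAs that gained most were those of B2m, from 1353 ± 149 to 2196 ± 150.4 FPKM (mean ± SD, n = 4), and of Cd83 (above). Ms4a4c, a membrane protein of the CD20 family, went from 106 ± 18.7 to 589 ± 29.1 FPKM and Myc from 41.7 ± 11.2 to 517 ± 17.5 FPKM. The mRNAs that lost most included Ighm, from 3184 ± 381 to 1866 ± 83.8 FPKM, and Cd79b, from 927 ± 56.2 to 293 ± 9.97 FPKM. These genes were chosen for the size of this change among called genes, so that the differences exceeded the SDs is no added support.

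**Figure D3:**
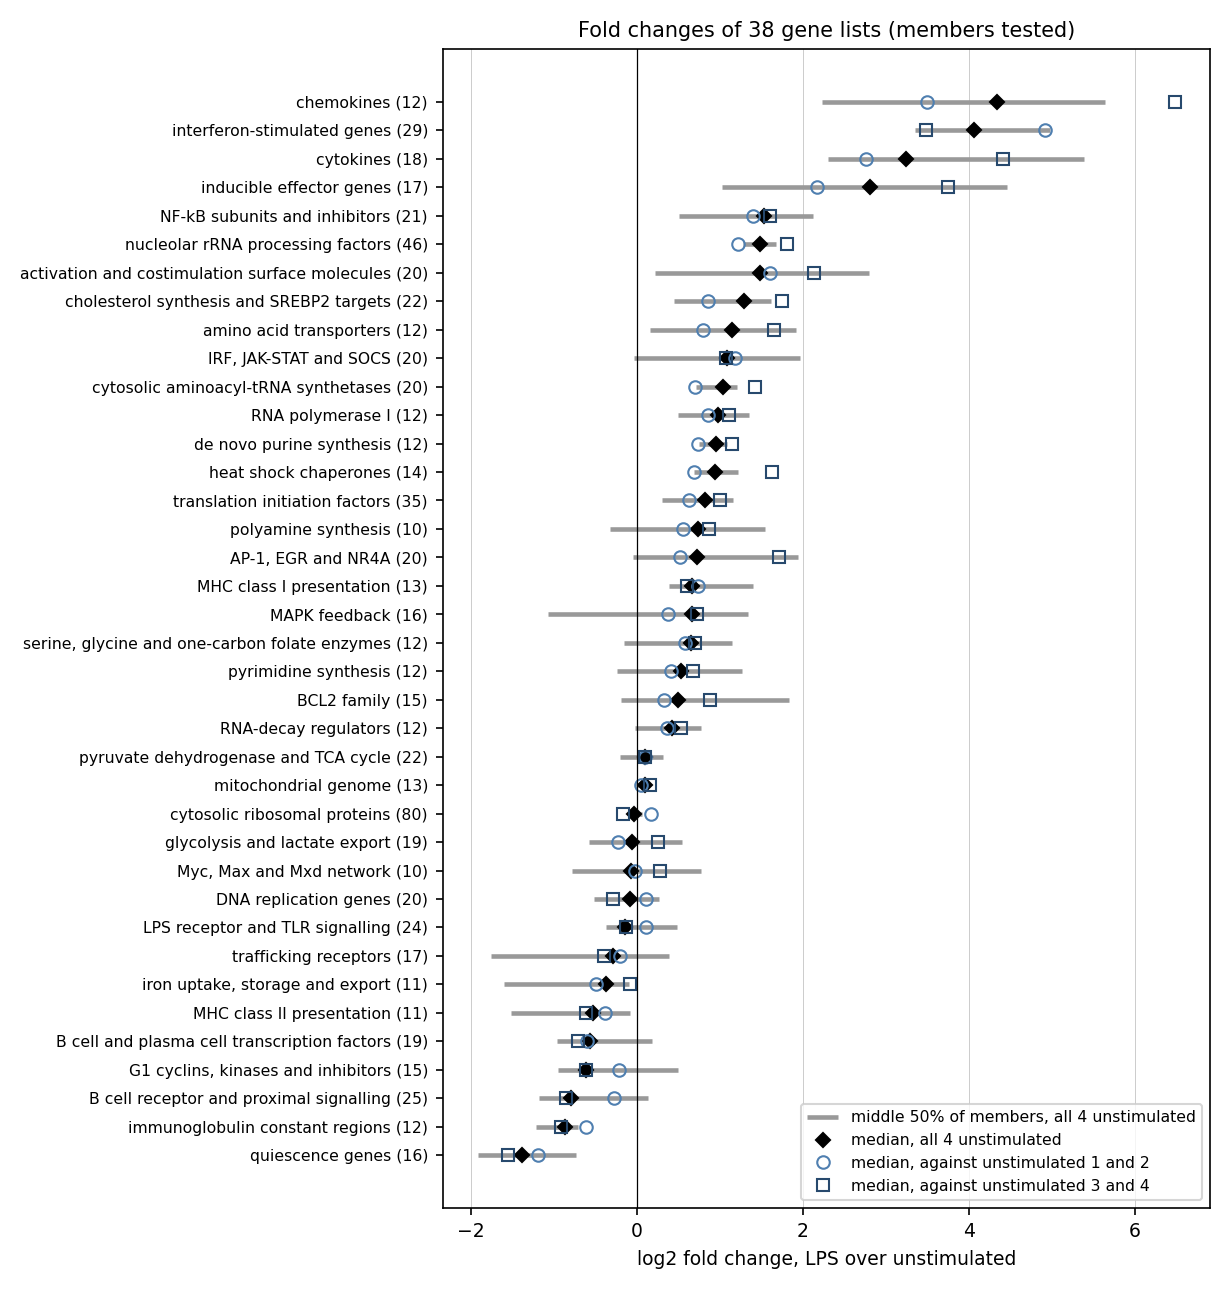
Median log2 fold change of the tested members of 38 gene lists with all 4 unstimulated samples (bar: interquartile range over the members), and the medians against unstimulated replicates 1 and 2 and replicates 3 and 4 alone. Chemokines (4.33), interferon-stimulated genes (4.07) and cytokines (3.24) have the highest medians and quiescence genes (-1.39) the lowest. The 2 pair medians lie on opposite sides of 0 for several lists. Among them are cytosolic ribosomal proteins, glycolysis, DNA replication, LPS receptor and TLR signalling, and the Myc network.

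Markers of other cells moved with LPS too. B cell markers were high in all samples, summed over 10 genes at 7461 to 7504 CPM in unstimulated replicates 1 and 2, 12265 to 12302 CPM in replicates 3 and 4 and 5919 to 6087 CPM with LPS, against 38.3 to 57.3 CPM for 12 T cell markers. Myeloid markers fell: of 12 genes 9 were called lower and 1 higher (median -1.13), and their summed level went from 625 to 788 CPM unstimulated to 154 to 173 CPM with LPS. Lyz2, lysozyme of macrophages and neutrophils, fell from 389, 377, 555 and 595 to 76.5, 78.8, 89.3 and 80.3 CPM (log2 fold change -2.56, SE 0.16, adjusted p = 4.05e-06), and Cx3cr1, the fractalkine receptor, from 24.3, 26.02, 27.8 and 25.7 to 0.359, 0.705, 0.672 and 0.601 CPM (log2 fold change -5.46, SE 0.17, adjusted p = 1.04e-07). In bulk samples fewer cells of a type and less RNA per cell cannot be told apart. Whether myeloid cells contributed to the rise of Il1b (32.6, 33.2, 2.48 and 2.78 to 128, 153, 167 and 147 CPM), Il6, Ccl3, Ccl4 or Cxcl10 was not tested.

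The other markers were low. Summed neutrophil markers stood at 71.8 to 73.2 CPM in unstimulated replicates 1 and 2, 31.2 to 34.9 CPM in replicates 3 and 4 and 24.6 to 29.1 CPM with LPS, with 3 of 8 tested called lower (6 without unstimulated replicate 3 or 4). Erythroid and platelet markers stood at 22.5 to 23.7 CPM, 68.8 to 72.9 CPM and 18.1 to 21.7 CPM in the same order, with 3 of 5 tested called lower. NK cell markers went from 11.2 to 15.5 CPM unstimulated to 7.99 to 9.02 CPM with LPS, with 1 of 5 tested called lower (2 without unstimulated replicate 1), and of 9 T cell markers tested 5 were called lower and 1 higher. Of 6 plasma cell markers tested 4 were called lower and 1 higher: Sdc1, which encodes CD138, fell from 60.6, 60.3, 19.9 and 21.95 to 5.69, 6.34, 7.34 and 6.55 CPM (log2 fold change -2.65, SE 0.40, adjusted p = 0.000475), and Slamf7 rose by 3.74-fold. No marker list had a member at 0 in all 8 samples.

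The second experiment held 1 unstimulated and 1 LPS sample (18722471 and 17509704 counts), so it has no test. Of the genes called higher in the first experiment with enough counts in the second, 3573 of 4106 (87.0%) were also higher there, and of those called lower 4058 of 4536 (89.5%) were also lower, where 49.7% of all 13882 genes with a ratio were higher and 50.3% lower. Of those called higher by 2-fold or more, 733 of 1569 (46.7%) were again 2-fold higher, against 8.30% of all genes. Nucleolar factors were higher in 46 of 46 cases (median log2 ratio 1.32), and NF-κB genes had a median of 1.16. Myc read 106 CPM unstimulated and 744 CPM with LPS there, Ccnd2 74.6 and 756 CPM, and Nfkbia 188 and 699 CPM. These CPM are relative to total counts, a scale set apart from the TMM-scaled levels of the first experiment. S1pr1 fell there from 336 to 57.4 CPM and Tlr4 from 14.4 to 2.86 CPM.

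Several lists did not repeat their direction in the second experiment, the interferon-stimulated genes among them. Of the 29, 10 were higher and 19 lower with LPS, with a median log2 ratio of -0.22, and their summed level was 4296 CPM unstimulated and 3487 CPM with LPS. Ifit1 read 124 and 132 CPM, Rsad2 164 and 119 CPM, and Isg15 52.4 and 96.2 CPM. The unstimulated sample of the second experiment thus stood above the 621 to 1225 CPM of the unstimulated samples of the first. Immunoglobulin constant region genes, of which 11 of 12 were called lower in the first experiment, had a median log2 ratio of 0.0079 in the second, with 7 higher and 5 lower. The IRF, JAK-STAT and SOCS genes had a median of -0.13 there, with 9 higher and 11 lower, against 1.09 in the first, and MHC class I presentation genes 0.13, with 7 higher and 6 lower, against 0.67. Chemokines had a median of 0.58, with Cxcl10 at 54.3 CPM unstimulated and 207 CPM with LPS. Summed myeloid markers were 60.5 and 47.6 CPM, below all 8 samples of the first experiment. The difference between the experiments was not tested, and its cause was not tested.

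**Figure D4:**
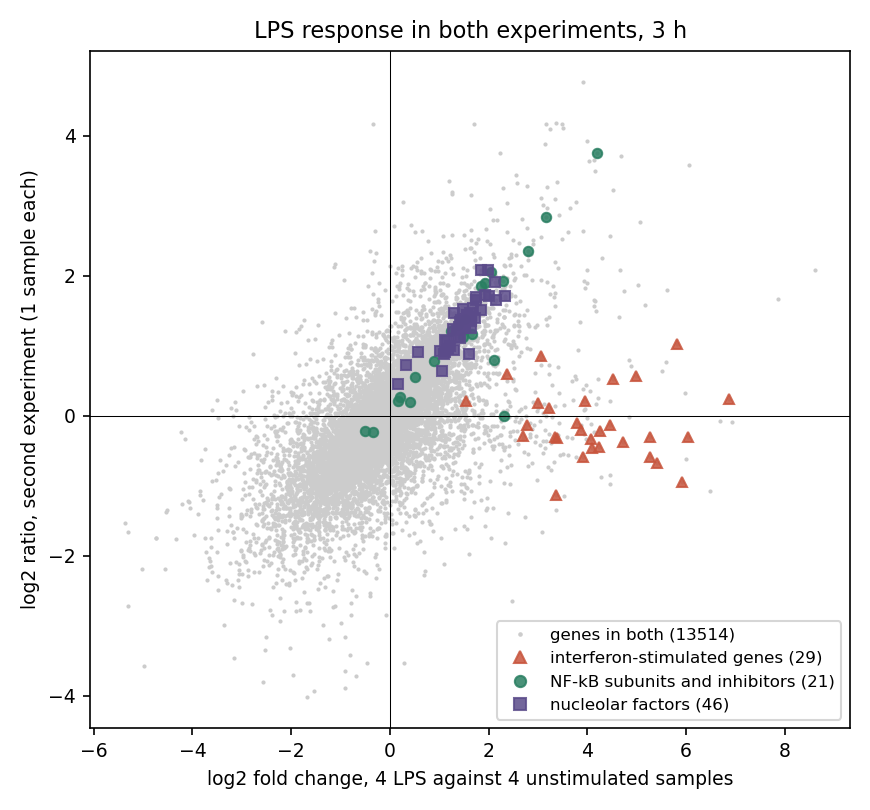
Log2 fold change with LPS in the first experiment (horizontal axis, 4 against 4 samples) and log2 ratio in the second (vertical axis, 1 against 1 sample) for 13514 genes, with 29 interferon-stimulated, 21 NF-κB and 46 nucleolar genes marked. NF-κB and nucleolar genes lie mostly above 0 on both axes, while interferon-stimulated genes lie to the right on the horizontal axis and around 0 on the vertical axis (median -0.22).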

How the data were processed

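RNA was purified with the RNeasy kit and polyadenylated RNA was captured before sequencing on a NovaSeq. Per the submitters' notes, the authors used Fastp for trimming, HISAT2 2.0.5 for alignment to mm10 and featureCounts 1.5.0-p3 for counting per gene. They deposited raw counts for 54532 genes with gene positions, and FPKM values calculated from these counts. The annotation release and the strand setting were not given in the sources used here, so it is not known whether reads of overlapping genes on opposite strands were told apart.

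The deposited counts of the 8 samples were tested with edgeR 4.0.16 in R 4.3.3 (quasi-likelihood, TMM factors, filterByExpr), with Benjamini-Hochberg adjustment over the 14477 genes kept. FPKM were used for levels per length of transcript in both groups and to name genes by level and by change in level. No test was run on FPKM, and the TMM factors were not applied to them. The test was tested on simulated data with this comparison's means and depths: 150 of 200 planted genes (62 of 100 at 2-fold and 88 of 100 at 4-fold) were recovered with 10 false calls. DESeq2 recovered 166 with 43 false calls. The simulation changed only these 200 genes and drew every sample independently, without the pairs of unstimulated samples. In the real data most genes were called, so these rates need not hold for this comparison. Alternatives were DESeq2 1.42.0, its size factors in edgeR, total counts, no filter and a stricter one (10 counts in every sample), all 20 samples of the first experiment in one fit, each unstimulated pair alone, a replicate block and leaving out each library. In the second experiment log2 ratios of TMM-scaled counts used a prior count of 2, and a gene needed a mean of 10 counts. Promoters were RefSeq windows (GRCm38.p6).

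The members and the 45 gene lists, 7 of them cell markers, were chosen with earlier results of these data known. Named genes were the 8 largest rises and falls among called genes that held against both pairs without overlap and reached 10 FPKM and 10 counts in each sample of the higher group, the 8 largest rises and falls in FPKM, and from each list the first 3 genes, the largest called rise and fall and called exceptions. Btk, Cd14, Cdkn1b, Cxcl16, Ebi3, Egr2, Gbp3, Hmox1, Ifnb1, Igkc, Il1b, Imp3, Irf7, Ms4a1, Nfkb1, Nfkb2, Nr4a2, Pax5, Rel, Slamf1 and Ticam1 fell outside this rule and were chosen after their values were seen. Some genes that the rule names are not reported here.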

Additional observations from a re-analysis of the deposited data

Results flagged for a closer look

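Groups of 4 samples were examined with Dixon's gap test at its usual critical value, where chance gives about 5%. The test looks for 1 sample apart from the other 3 and cannot flag a split into 2 pairs. For unstimulated samples that split in this way the 5% need not hold. Of 374 groups examined, 11 held a sample that stood apart from the other 3. Among genes these were Bad in unstimulated replicate 2 (10.03 CPM) and in LPS replicate 3 (5.99 CPM), Dhcr7 in unstimulated replicate 4 (30.9 CPM), Edn1 in LPS replicate 3 (28.2 CPM), Hk2 in LPS replicate 1 (170.1 CPM), Myd88 in unstimulated replicate 3 (41.2 CPM), Nfkb2 in LPS replicate 4 (829.9 CPM), Nr4a2 in LPS replicate 1 (3.39 CPM) and Odc1 in LPS replicate 1 (685 CPM). Among summed lists, RNA polymerase I genes stood at 1687 CPM in LPS replicate 2, against 1661 to 1665 CPM in the other 3. Plasma cell markers stood at 704.7 CPM in unstimulated replicate 4, against 611 to 616 CPM in the other 3.

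For 13 named genes that changed by 2-fold or more without overlap in the first experiment, the ratio in the second pointed the other way. The difference was not tested, since the second experiment has 1 sample per group. With a rise in the first experiment, the log2 ratio in the second was -0.95 for Ifit3, -1.08 for Ifit3b, -0.26 for Irf1, -0.33 for Irf7, -0.30 for Rsad2, -0.15 for Slfn2 and -0.40 for Tap1. With a fall in the first, it was 0.18 for Cd180, 0.36 for Fos, 0.20 for Fosb, 0.23 for Gm22107, 0.069 for Igha and 0.012 for Iglc2.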

How the results depend on the processing

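The counts of genes called higher and lower stayed within 1.5 times of the reported ones in every alternative: 2907 (total counts) to 5618 (unstimulated replicates 3 and 4 alone) higher and 4185 (10 counts in every sample) to 6383 (total counts) lower. The 1 count of calls by size that moved further was that of genes higher by 2-fold or more, 2607 of 15229 tested against unstimulated replicates 3 and 4 alone. Leaving out 1 library gave 3923 to 4449 genes higher and 4346 to 4815 lower, and by 2-fold or more 1639 to 1965 and 2050 to 2372. DESeq2 gave 4522 and 4780. With the replicate number as a block (replicate block) 4281 were higher and 4414 lower. Same-numbered samples did not deviate together (correlations of 0.003, 0.011, -0.032 and 0.013). Deviations of the unstimulated samples mainly followed their split into pairs, which the LPS samples did not show. This check therefore says little on whether same-numbered samples share a source. The replicate numbers were not taken as pairs in the main test.

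Of the 142 genes named with a test, 124 kept their direction and their side of the threshold in all of the alternatives in which they could be tested. The 1 reversal was Cr2, at 0.35 on the log2 scale against unstimulated replicates 1 and 2 alone. Its call was also lost with the replicate block and without any 1 of the LPS replicates or of unstimulated replicates 3 and 4. Of the 45 lists, the count of members called in the main direction moved by over 1.5 times in 7 with total counts (AP-1, EGR and NR4A genes 10 to 6, RNA-decay regulators 8 to 5, the TCA cycle 8 to 3, DNA replication and ribosomal proteins 5 to 3 each, and 2 marker lists), in 7 with 10 counts in every sample (fewer members tested; cytokines 14 to 6, chemokines 11 to 6, inducible effectors 14 to 7, and 4 marker lists) in 5 against unstimulated replicates 1 and 2 alone (ribosomal proteins 5 to 60, DNA replication 5 to 8, the mitochondrial genome 0 to 2, and 2 marker lists), in 3 against replicates 3 and 4 alone (the mitochondrial genome 0 to 7, MHC class II 6 to 10, and 1 marker list) and in 0 with the replicate block. The share of called genes with the same direction in the second experiment was 80.2% to 88.6% for higher and 89.5% to 94.5% for lower calls. What separates the unstimulated pairs and the experiments was not tested. With 4 samples per group at the depths given above, changes of about 2-fold in genes of low counts or with pairs far apart could be missed. For genes with pairs far apart, adjusted p-values may also be too small, since the fit took the 4 unstimulated samples as independent.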
